A study of Mus musculus with 6 samples.

Results

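The genes of proximal T cell receptor (TCR) signalling were compared between 2 sort gates of CD4 T cells from the inflamed mouse colon. The set holds 42 genes, a list of names given by place in the pathway, of 55335 in the count table. They are 28 genes that carry the signal forward (receptor chains, kinases, adaptors, exchange factors, calcium and NF-kB steps, NFAT factors and the costimulator Cd28) and 14 that restrain or tune it. All 42 passed the expression filter, as did 11074 genes in all.

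Naive CD4 T cells of the spleen were taken from mice with a GFP reporter of the Tcf7 locus (TcfGFP) and given to Rag1 knockout mice, which have no T or B cells of their own but keep their myeloid cells, and colitis developed. From the lamina propria of the colon, GFP+ cells (TCF7+, which the labels call stem-like) and GFP- cells (TCF7-, called effector T cells) were sorted, with 3 libraries of each. Both gates therefore share the donor genotype, the knockout host and the disease, and were sorted apart by the reporter. Their libraries may differ in other ways too, and GFP-positive replicate 3 held more transcripts of other cells, as given below. The labels name neither the age and sex of the mice nor the time after transfer, and do not tell whether replicates are separate mice, so the p-values cover library-to-library spread alone, which may be technical in part.

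An engaged TCR passes its signal through the CD3 and zeta chains, whose cytoplasmic tails are phosphorylated by the kinase LCK. ZAP-70 docks on these tails and phosphorylates the scaffold LAT and the adaptor SLP-76, which gather PLC-gamma1, GADS, GRB2 and VAV1. PLC-gamma1 then makes the messengers diacylglycerol, which turns on RAS through RASGRP1 and NF-kB through PKC-theta, BCL10 and MALT1, and inositol trisphosphate, which opens calcium entry through STIM1 and ORAI1 and so activates NFAT. Brakes act at every step: CSK and the phosphatases SHP-1 and PTPN22 on the kinases, CBL-family ubiquitin ligases on receptor and adaptors, and diacylglycerol kinases on the messenger. In the mouse gut, T cells meet microbial antigens continually, and the strength of these steps is known to set how a T cell responds.

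Because the gate reports Tcf7, whose product TCF1 binds DNA at letters such as CTTTGAA or CTTTGAT, the 250 bases before each RefSeq start site (GRCm38.p6) were searched for these letters on both strands. Start sites of 37 of the 42 genes were used, and Cd28, Cd6, Malt1, Nfatc1 and Pag1 were not analysed here. A match stood before 5 of the 37 genes, where 8.63% of all 27025 gene symbols in the table had one. Some genes have several start sites, and so more windows in which a match can fall. By window, 5 of the 54 windows of members held a match, where 7.48% of all 32851 windows did. The 5 matches are shown with their flanks, 5′ to 3′ on the strand of the gene, with the matching letters (or their reverse complement) in capitals.
Cd3d: agtcttacaccATCAAAGgcagaaggtag
Fyn: ctcagcgggccCTTTGATagggcagaaag
Ptprc: cattgcactgaCTTTGAAcgacctttttt
Trat1: tcacacctttgCTTTGATtctgcattttt
Txk: tctgtgatttcTTCAAAGtgttttctaga
They lie at chr9:44981720-44981748 (plus strand), chr10:39369692-39369720 (plus), chr1:138175376-138175404 (minus), chr16:48772265-48772293 (minus) and chr5:72752953-72752981 (minus), with the first base of the match 55, 96, 88, 220 and 193 bases before the start. None overlaps an annotated exon. The Fyn and Ptprc stretches are intronic to longer models of the same gene, and the other 3 are outside annotated genes. In edgeR's test between the gates the unadjusted p was 0.490 for Cd3d, 0.469 for Fyn, 0.493 for Ptprc, 0.382 for Trat1 and 0.292 for Txk, and the presence of the letters is a description only. The letters of 3 other motifs were searched in the same windows. CAGCTG or CACCTG, read by E proteins, stood before 18 of the 37 genes (30.6% of all symbols), TGTGGTT, read by RUNX factors, before Lck and Txk (5.08%), and CCGGAAGT, read by ETS factors, before none (3.23%). By window, CAGCTG or CACCTG stood in 19 of the 54 (27.7% of all windows), TGTGGTT in 2 (4.4%) and CCGGAAGT in 0 (2.88%). CAGCTG reads the same on both strands, and none of these motifs contains another.

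The deposited counts summed to between 4309500 and 7462076 per library. T cell markers were present in every library: Cd3d, Cd3e, Cd3g, Cd4, Trac, Trbc1 and Trbc2 together held 0.513% to 0.584% of counts in GFP-negative and 0.425% to 0.582% in GFP-positive libraries. GFP-positive replicate 3 stood apart by its transcripts of other cells. All 10 myeloid markers were detected there and held 0.762% of its counts, against 0.0272% to 0.035% in the other 5 libraries, and Lyz2, the lysozyme of macrophages, stood at 4217 CPM (counts relative to the library total) against 65.8 to 100.4 CPM. Of 8 antigen-presenting and B cell markers, the MHC class II genes and Cd74 carried the sum to 0.655% there (0.0182% to 0.0428% elsewhere), while the B cell genes Cd79a and Cd79b were at or below 1.36 CPM in every library and Ms4a1 at 0 in all 6. The 4 natural killer and innate lymphoid markers summed to 0.0752% there against 0.00154% to 0.00777%, through Tyrobp (487 against at most 35.2 CPM) and Fcer1g (302 against at most 26.4 CPM), which myeloid cells express too. Ncr1 and Klrb1c, the other two, were at 7.602 and 8.61 CPM there and at most 8.19 and 7.82 CPM elsewhere. The 6 epithelial markers summed to 0.0243% against 0.0023% to 0.00492%, and 8 stromal and endothelial ones to 0.0386% against 0.00424% to 0.00845%, with the endothelial Vwf and Cdh5 at 0 in all 6 libraries. Cd8a and Cd8b1 held at most 0.0123% of any library and 0.00131% of this one. In sorted bulk RNA, fewer cells of a type and less RNA per cell cannot be told apart.

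Measured per length, levels within the set differed widely. In the deposited TPM (a level scaled by gene length, so that genes can be compared with each other), Lat was the most abundant member with a mean level of 1487 TPM over the 6 libraries, followed by Lck (1391 TPM), Cd3g (1099 TPM) and Cd3d (1002 TPM). The library ranges of these neighbours overlapped, 1089.7 to 1731 TPM for Lat and 969 to 1630.3 TPM for Lck, so their order is not resolved. Trat1, Cd3e, Ptprc and Lcp2 came next with mean levels of 534, 498, 467 and 433 TPM. At the bottom stood Pag1 (10.6 TPM), Rasgrp2 (8.05 TPM), Ubash3b (2.62 TPM) and Sos1 (2.44 TPM).

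For pairs of related members the level of one was set against the other in each library. Lck, the main TCR kinase, was 11.1 to 13.5 times as abundant as its relative Fyn in TPM in GFP-negative libraries and 8.97 to 15.5 times in GFP-positive ones. Rasgrp1 exceeded Rasgrp2 by 14.5 to 23.0 times and 10.9 to 14.6 times, and Nfatc1 exceeded Nfatc2 by 4.31 to 5.50 times and 3.84 to 4.82 times. Cblb stood above Cbl by 2.59 to 2.79 times in GFP-negative libraries and by 4.76, 3.05 and 3.17 times in GFP-positive replicates 1 to 3. The ranges of this ratio did not overlap. Those of every other pair overlapped, Ubash3a over Ubash3b and Nfatc1 over Nfatc3 included, and no ratio was tested. Dgka stood above Dgkz by 5.76 to 6.87 times in GFP-negative libraries and by 11.8, 12.2 and 6.76 times in GFP-positive replicates 1 to 3. Replicate 3 thus lay within the GFP-negative range of that ratio.

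**Figure D1:**
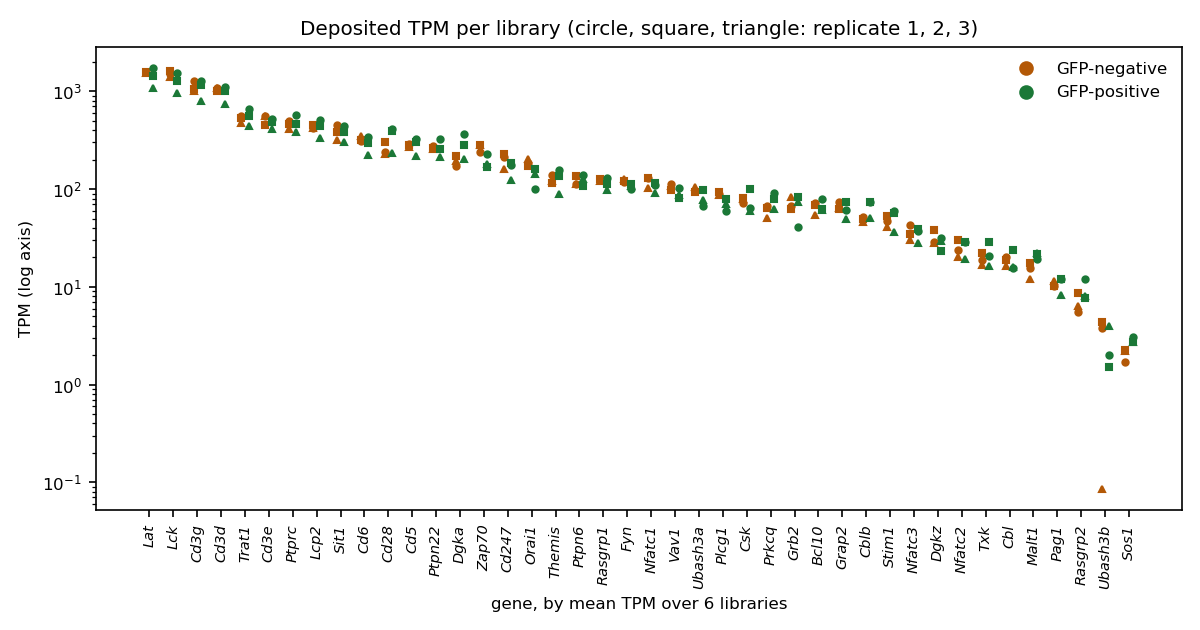
Deposited TPM of the 42 genes in each library on a log axis, ordered by mean level; orange marks GFP-negative and green GFP-positive libraries. Lat, Lck, Cd3g and Cd3d lead in level, the 2 colours mix for most genes, and Ubash3b in GFP-negative replicate 3 lies far below its other values.

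Between the gates, the members as a whole differed little. No member passed an adjusted p of 0.05 in edgeR's quasi-likelihood test over all 11074 genes, where 0.108% of genes did. At an unadjusted p under 0.05 there were 6 members of 42, of which Dgka, Cblb, Malt1, Prkcq and Cd28 were higher and Zap70 lower in GFP-positive cells, and their direction was kept under every alternative tried. Over all tested genes 10.3% met that threshold (4.31% higher, 5.97% lower), and among the 1915 genes with a mean of at least 100 CPM, a level chosen after the values were seen, 279 (14.6%) did, beside 6 of the 32 members at that level. Over both directions together, the 6 are therefore few more than the background gives. At that level 5 members were higher and 1 lower, where 101 and 178 of the 1915 genes were. The members were chosen with earlier results of these data known, and the 6 are described here as values. DESeq2 called 1 member, Dgka (adjusted p = 0.0441, with 1.81% of genes called), and limma-voom called 0 (0.163% of genes). They put 6 and 7 members at an unadjusted p under 0.05, beside 1202 and 1119 of all 11074 genes.

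Log2 fold changes, GFP-positive minus GFP-negative throughout, had a median of 0.02 over the 42 members and of 0.02 over all tested genes. They ran from -0.41 for Zap70 to 0.60 for Dgka, and 24 of 42 were positive (57.1%, where 51.6% of all tested genes were). On log2(TPM + 1) 16 of 42 were positive, where 47.6% of all genes tested on that scale were. The 28 forward genes had a median of -0.01 with 14 positive, and the 14 brakes a median of 0.05 with 10 positive. Leaving out GFP-positive replicate 3 gave medians of 0.07 with 17 positive and 0.12 with 10 positive, and the log2(TPM + 1) scale gave -0.10 with 10 positive and -0.02 with 6 positive. The 95% interval of the log2 fold change, for each gene alone, lay within a 2-fold difference either way for 39 of the 42 members and within 1.5-fold for 28. The 3 whose interval reached past 2-fold were Sos1, Rasgrp2 and Ubash3b, the 3 least abundant members in TPM.

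**Figure D2:**
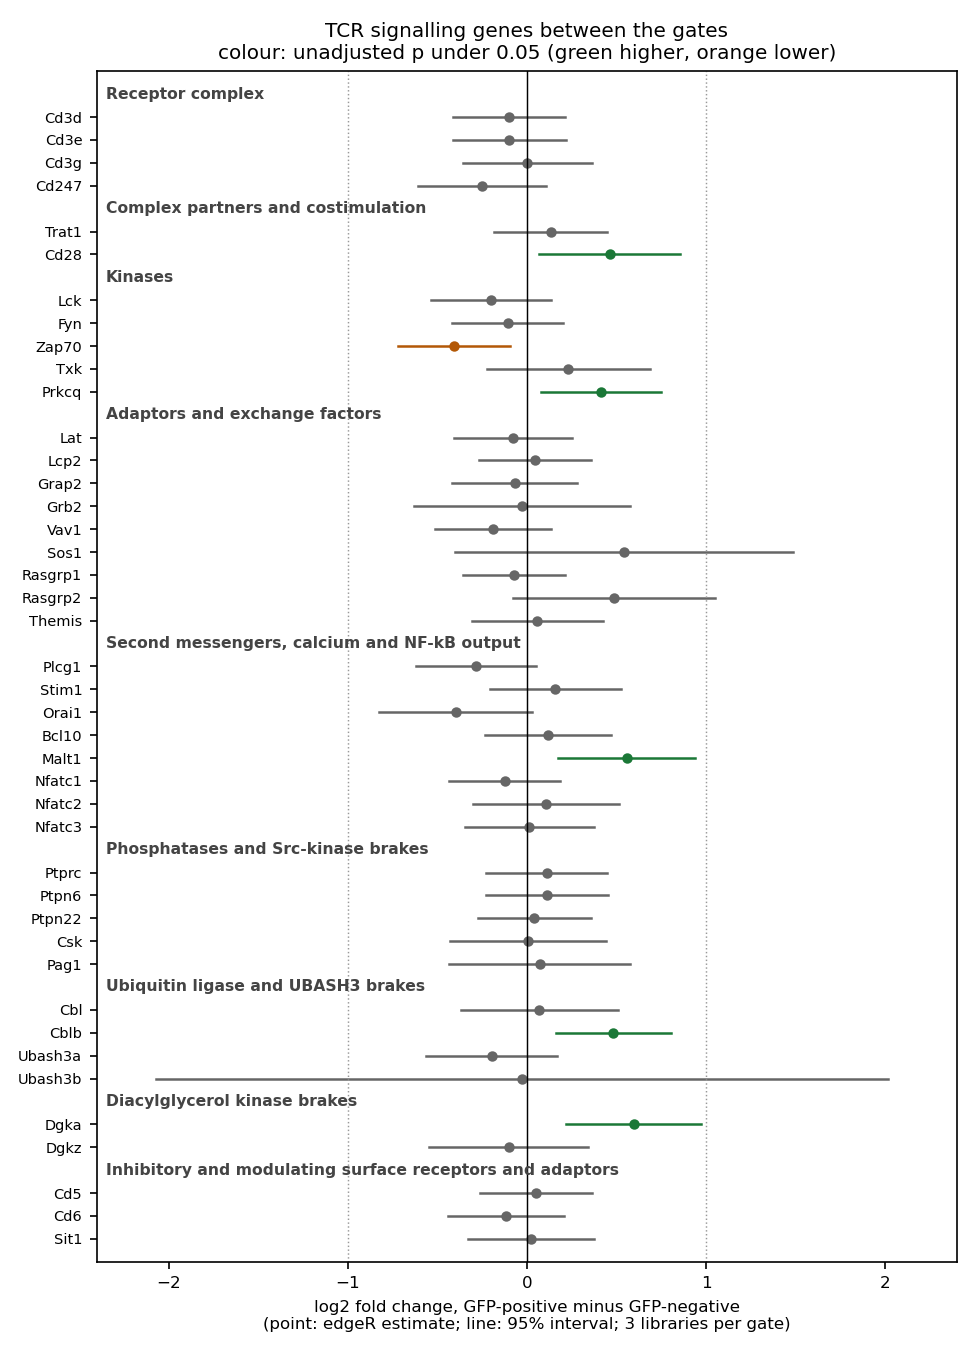
Log2 fold change of each member between the gates with its 95% interval, grouped by role; dotted lines mark a 2-fold difference. Intervals of 28 of the 42 members lie within 1.5-fold, with Dgka, Malt1, Cblb, Cd28 and Prkcq to the right and Zap70 to the left of the line, and the wide interval is that of Ubash3b.

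The receptor chains did not separate the gates. Cd3g, the gamma chain, had 1447, 1164 and 1147 CPM in replicates 1 to 3 of the GFP-negative gate and 1406, 1347 and 1013 CPM in those of the GFP-positive gate. Cd3e, the epsilon chain, stood at 795, 622 and 791 CPM and 704, 707 and 651 CPM in the same order. For both chains the GFP-positive values lay among or beside the GFP-negative ones. Cd3d, the delta chain, had 677, 617 and 679 CPM and 669, 644 and 525 CPM, and Cd247, the zeta chain with the most phosphorylation motifs, 394, 408 and 302 CPM and 317, 351 and 260.3 CPM. The library rich in myeloid transcripts, GFP-positive replicate 3, was the lowest of the 6 for Cd3d, Cd3g and Cd247. The log2 fold changes were -0.10 ± 0.14 (SE) for Cd3d, -0.10 ± 0.15 for Cd3e, 0.00 ± 0.17 for Cd3g and -0.25 ± 0.16 for Cd247, with intervals of -0.41 to 0.21, -0.42 to 0.22, -0.36 to 0.36 and -0.61 to 0.10. EdgeR's adjusted p was 0.866, 0.872, 0.997 and 0.667, and the sign of Cd3g turned under 11 of 16 alternatives, library size alone and the TPM scale among them. Without GFP-positive replicate 3 the log2 fold change was 0.0044 for Cd3d and -0.13 for Cd247. Counts of Cd247 may include reads of Pou2f1, which covers 3007 of its 5329 exonic bases on the other strand, since the library kit named in the labels does not mark strand.

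The genes next to the receptor were Trat1 and Cd28. Trat1 encodes TRIM, a transmembrane adaptor bound to the TCR, and had 911 ± 109.99 against 831 ± 62.01 CPM (GFP-positive against GFP-negative, mean ± SD, n = 3 each). Cd28, the receptor whose costimulation supports proliferation and IL-2, stood at 511, 624 and 489 CPM in GFP-negative and at 833, 849 and 553 CPM in GFP-positive replicates 1 to 3. GFP-positive replicates 1 and 2 lay above all GFP-negative libraries, while replicate 3 lay within their range. The log2 fold change of Cd28 (chromosome 1, 60716800 to 60773359, plus strand, GRCm38) was 0.46 ± 0.18 (SE; interval 0.07 to 0.85), with an edgeR adjusted p of 0.396.

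Among the kinases, Zap70 was lower and Prkcq higher in GFP-positive cells, each without overlap of the groups, and Lck, Fyn and Txk overlapped. Zap70 (chromosome 1, 36761798 to 36782818, plus strand), the kinase that reads phosphorylated CD3 tails, stood at 249, 282 and 292 CPM in GFP-negative and at 228, 180.5 and 212 CPM in GFP-positive replicates 1 to 3. Every GFP-positive library lay below every GFP-negative one, with 207 ± 24.3 against 274 ± 22.8 CPM (mean ± SD, n = 3 each). Its log2 fold change was -0.41 ± 0.14 (SE; interval -0.72 to -0.09), and the edgeR adjusted p was 0.349. Prkcq (chromosome 2, 11172108 to 11301222, plus strand), which encodes PKC-theta, had 164, 152 and 126 CPM in GFP-negative and 215, 200.2 and 172 CPM in GFP-positive replicates 1 to 3. The lowest GFP-positive library exceeded the highest GFP-negative one by a small margin, and the log2 fold change was 0.41 ± 0.15 (interval 0.08 to 0.75; edgeR adjusted p = 0.379). Over all tested genes 16% had ranges that did not overlap (7.25% higher, 8.8% lower), and of the 42 members 7 did (5 higher, 2 lower), a share of 16.7%.

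Lck stood at 1538, 1594 and 1422 CPM in GFP-negative and 1522, 1334 and 1106 CPM in GFP-positive replicates 1 to 3. Its groups overlapped through GFP-positive replicate 1, and the log2 fold change was -0.20 ± 0.15 (interval -0.54 to 0.13; edgeR adjusted p = 0.718), or -0.08 without GFP-positive replicate 3. Fyn, the second Src-family kinase of T cells, had 169 ± 19.6 against 182 ± 8.53 CPM. Txk, a Tec-family kinase, had 70.9, 82.1 and 64.3 CPM in GFP-negative and 75.2, 111 and 68.99 CPM in GFP-positive replicates 1 to 3. One library, GFP-positive replicate 2, was high for Txk, and without it the log2 fold change went from 0.23 to -0.0047.

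Adaptors and exchange factors overlapped between the gates in 8 of 9 genes. Lat, the membrane scaffold of the pathway, had 1494, 1451 and 1478 CPM in GFP-negative and 1598, 1418 and 1175 CPM in GFP-positive replicates 1 to 3. The GFP-negative libraries agreed closely and the GFP-positive ones lay on both sides of them, with a log2 fold change of -0.08 ± 0.15 (interval -0.40 to 0.25; edgeR adjusted p = 0.909), or 0.04 without GFP-positive replicate 3. Lcp2, which encodes SLP-76, had 685 ± 94.4 against 664 ± 8.11 CPM, and Grap2, which encodes GADS, the link between SLP-76 and LAT, had 137 ± 22.9 against 143 ± 14.2 CPM (mean ± SD, n = 3 each). Themis, a T cell adaptor known for its role in thymic selection, had 525 ± 102 against 504 ± 59.6 CPM. Grb2, the adaptor that brings SOS to LAT, was low in a single library, with 39.5 CPM in GFP-positive replicate 1 and 61.4 to 86.9 CPM in the other libraries. Vav1, an exchange factor for RAC, had 145, 122 and 139 CPM and 125, 107 and 124 CPM, with overlap (log2 fold change -0.19 ± 0.15; edgeR adjusted p = 0.727).

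The exchange factors of RAS-family GTPases split by abundance. Rasgrp1, which answers to diacylglycerol, had the smallest standard error of the set, at 228 ± 14.9 against 239 ± 5.35 CPM (mean ± SD, n = 3 each) with an interval of -0.36 to 0.21 on the log2 scale. Rasgrp2, an exchange factor of the RAP1 GTPase, had 23.6, 36.2 and 27.4 CPM in GFP-negative and 49.5, 33.8 and 38.7 CPM in GFP-positive replicates 1 to 3, and differed by 0.49 ± 0.26 on the log2 scale (SE; edgeR adjusted p = 0.5803), or by 0.32 without GFP-positive replicate 1. Sos1, the RAS exchange factor that GRB2 carries, had 6.203, 7.96 and 8.11 CPM in GFP-negative and 10.7, 10.3 and 11.3 CPM in GFP-positive libraries, on 32 to 79 counts each. Its groups did not overlap, but at this depth its log2 fold change of 0.54 ± 0.44 had an interval of -0.40 to 1.49 (edgeR adjusted p = 0.738).

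Downstream of the adaptors, Plcg1 and Orai1 had lower means and Malt1 a higher mean in GFP-positive cells, and none of them was called. Plcg1, the phospholipase that makes both messengers, had 242, 242 and 239 CPM in replicates 1 to 3 of the GFP-negative gate, nearly the same in each, and 157, 223 and 215 CPM in those of the GFP-positive gate. All 3 GFP-positive values lay below the GFP-negative ones, replicate 1 by far the most, and the log2 fold change was -0.28 ± 0.16 (interval -0.62 to 0.05; edgeR adjusted p = 0.594), or -0.15 without replicate 1. Zhx3 and Gm27206 overlap Plcg1 exons on the other strand over 627 bases, so its counts may include their reads. Orai1, the calcium channel of the plasma membrane, had 146, 131 and 165 CPM in GFP-negative and 77.6, 131 and 126 CPM in GFP-positive replicates 1 to 3. The groups met at 131 CPM, and the log2 fold change was -0.40 ± 0.20 (interval -0.83 to 0.03; edgeR adjusted p = 0.534), or -0.20 without GFP-positive replicate 1. Stim1, the calcium sensor that opens ORAI1, had 188 ± 35.9 against 168 ± 17.9 CPM (mean ± SD, n = 3 each).

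Malt1 (chromosome 18, 65430938 to 65479067, plus strand), the paracaspase that acts with BCL10 in NF-kB activation, had 98.3, 105 and 76.1 CPM in GFP-negative and 116, 139.6 and 155 CPM in GFP-positive replicates 1 to 3. Every GFP-positive library was above every GFP-negative one, the highest being replicate 3, and the log2 fold change was 0.56 ± 0.18 (SE; interval 0.17 to 0.94; edgeR adjusted p = 0.269). Leaving out replicate 3, which holds the myeloid transcripts, it was 0.46. Bcl10, its partner, had 111 ± 10.01 against 102 ± 13.6 CPM (mean ± SD, n = 3 each) and overlapped. The 3 NFAT factors overlapped as well: Nfatc1, the isoform that activation induces, had 338, 321 and 269.9 CPM in GFP-negative and 276, 309.7 and 267 CPM in GFP-positive libraries, Nfatc2 had 96.4 ± 15.7 against 89.4 ± 15.2 CPM and Nfatc3 145 ± 17.7 against 144 ± 25.1 CPM. The log2 fold change of Nfatc1 was -0.12 ± 0.14 (interval -0.43 to 0.19; edgeR adjusted p = 0.8304).

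**Figure D3:**
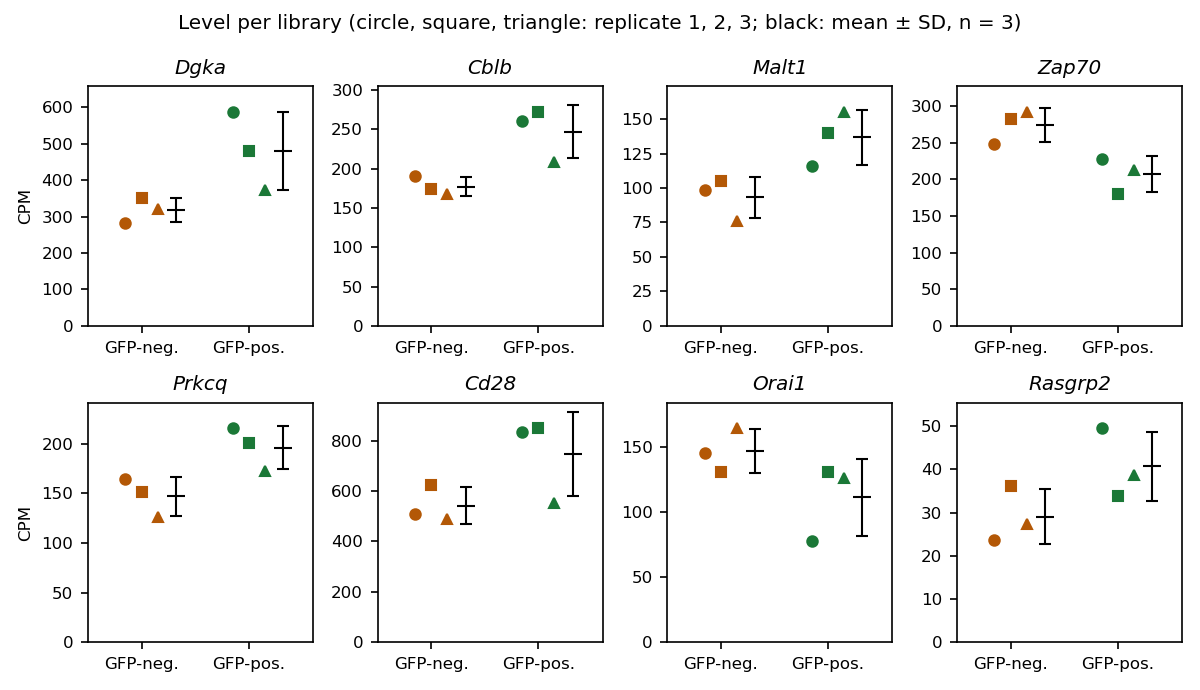
CPM of the 8 members with the smallest unadjusted p in each library, with the mean and SD of 3 libraries per gate; circles, squares and triangles are replicates 1, 2 and 3. Dgka, Cblb, Malt1, Zap70 and Prkcq do not overlap between the gates, while Cd28, Orai1 and Rasgrp2 do. The 8 were picked by p in this same comparison, and edgeR called none of them. Over all tested genes 16% had ranges that did not overlap. GFP-positive replicate 3 (triangle) is the GFP-positive library nearest to the GFP-negative ones for Dgka, Cblb, Prkcq and Cd28.

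Of the brakes, the diacylglycerol kinase Dgka and the ubiquitin ligase Cblb stood higher in all 3 GFP-positive libraries, neither called by edgeR, while their relatives Dgkz and Cbl overlapped. These 2 of the 14 brakes (14.3%) had ranges that did not overlap, where 16% of all tested genes did. Dgka (chromosome 10, 128720134 to 128744855, minus strand), the kinase that removes diacylglycerol and so limits RAS signalling, stood at 283, 349.96 and 321 CPM in GFP-negative and at 588, 481 and 373 CPM in GFP-positive replicates 1 to 3. Replicates 1 and 2 lay well above the GFP-negative libraries and replicate 3 just above the highest of them. The means were 481 ± 107 against 318 ± 33.8 CPM (mean ± SD, n = 3 each), and the log2 fold change was 0.60 ± 0.17 (SE; interval 0.22 to 0.97; edgeR adjusted p = 0.231). Over the alternatives its adjusted p ran from 0.0201 to 0.763 and its log2 fold change from 0.42 to 0.76, and without GFP-positive replicate 3 these were 0.0589 and 0.76. Dgkz, the other diacylglycerol kinase of T cells, had 62.6, 80.04 and 61.6 CPM in GFP-negative and 65.6, 51.7 and 72.7 CPM in GFP-positive libraries and overlapped, with an interval of -0.55 to 0.34. The difference between the responses of Dgka and Dgkz was not tested, and Pmel overlaps 105 exonic bases of Dgka on the other strand.

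Cblb (chromosome 16, 52031225 to 52208048, plus strand), a ubiquitin ligase known to hold T cells to a need for CD28 costimulation, had 190.1, 174 and 167 CPM in GFP-negative and 261, 272 and 208 CPM in GFP-positive replicates 1 to 3. All GFP-positive libraries were higher, and the log2 fold change was 0.48 ± 0.15 (SE; interval 0.16 to 0.80; edgeR adjusted p = 0.253, and 0.0942 to 0.763 over the alternatives). Cbl had 82.4 ± 20.8 against 78.4 ± 8.02 CPM (mean ± SD, n = 3 each) and overlapped, with an interval of -0.37 to 0.51. The difference between the responses of Cblb and Cbl was not tested. Ubash3a, which encodes a suppressor of TCR signalling expressed in T cells, had 370.2, 348 and 412 CPM in GFP-negative and 254, 393 and 339 CPM in GFP-positive libraries. GFP-positive replicate 1 was low and replicate 2 within the GFP-negative range, and the log2 fold change was -0.20 ± 0.17 (edgeR adjusted p = 0.758), or -0.05 without the former. Ubash3b, its phosphatase relative, was near the limit of detection, with 1 count in GFP-negative replicate 3 and 17 to 79 counts in the other libraries, and its interval of -2.07 to 2.01 leaves its direction unresolved.

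The phosphatases and the other inhibitors of Src-family kinases differed little in mean. Ptprc, which encodes CD45, the phosphatase that keeps LCK ready and can also restrain it, stood at 3141, 2822 and 2659 CPM in GFP-negative and 3539, 3004 and 2760.03 CPM in GFP-positive replicates 1 to 3. The groups overlapped, and the log2 fold change was 0.11 ± 0.16 (interval -0.23 to 0.45; edgeR adjusted p = 0.867), or -0.0011 without GFP-positive replicate 1. Ptpn22 had 637 ± 89.2 against 619 ± 30.7 CPM, and Ptpn6, which encodes SHP-1, had 124 ± 15.9 against 115 ± 10.2 CPM (mean ± SD, n = 3 each). Csk, which places the inhibitory phosphate on LCK, had 93.2, 102 and 103 CPM and 79.8, 134 and 86.1 CPM, with GFP-positive replicates 1 and 2 as the lowest and highest of the 6 libraries. Pag1, its membrane anchor, had 36.6 ± 5.03 against 34.8 ± 2.97 CPM. The intervals of these 5 genes all lay within 1.5-fold either way.

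Surface receptors and adaptors that tune the signal also overlapped. Cd5, an inhibitory receptor whose level is known to follow the strength of self-recognition, had 496, 470.2 and 465 CPM in GFP-negative and 535, 529 and 417 CPM in GFP-positive replicates 1 to 3. Cd6, its relative, had 816 ± 109 against 885 ± 69.4 CPM, and Sit1, a transmembrane adaptor that recruits phosphatases, 169 ± 19.6 against 167 ± 28.2 CPM (mean ± SD, n = 3 each). Their intervals were -0.26 to 0.36, -0.44 to 0.21 and -0.33 to 0.37 on the log2 scale.

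The members were also compared library by library. GFP-positive replicate 3 was the lowest of the 6 libraries for 15 of 42 members, GFP-negative replicate 3 for 12 and each other library for 1 to 7. The same counts over all tested genes were not made, so these cannot be read as particular to the members. The members were split by hand into 24 that are known to be widely expressed among leukocytes, myeloid cells included, and 18 others best known from T cells, some of which, such as Lck, Zap70, Cd247, Lat and Cd5, are also known in natural killer, mast or B cells. For the 18 members best known from T cells the median of log2(CPM + 1) minus the mean of the gene over the 6 libraries was -0.20 in GFP-positive replicate 3 and -0.02 to 0.11 in the other 5. For the 24 widely expressed members, such as Ptprc, Lcp2 and Vav1, it was -0.02 in that library and -0.13 to 0.07 in the others. The lowest, -0.13, was that of GFP-negative replicate 3. Over all tested genes the same median was 0.00 to 0.02 in every library. Between the gates the first kind had a median log2 fold change of -0.07 with 8 of 18 positive, or 0.03 with 11 positive when GFP-positive replicate 3 was left out. The second kind had 0.06 with 16 of 24 positive, or 0.13 with 16 positive. On log2(TPM + 1) the medians were -0.14 and -0.01. The markers of myeloid and antigen-presenting cells are highest in GFP-positive replicate 3, and their part in these values was not tested.

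**Figure D4:**
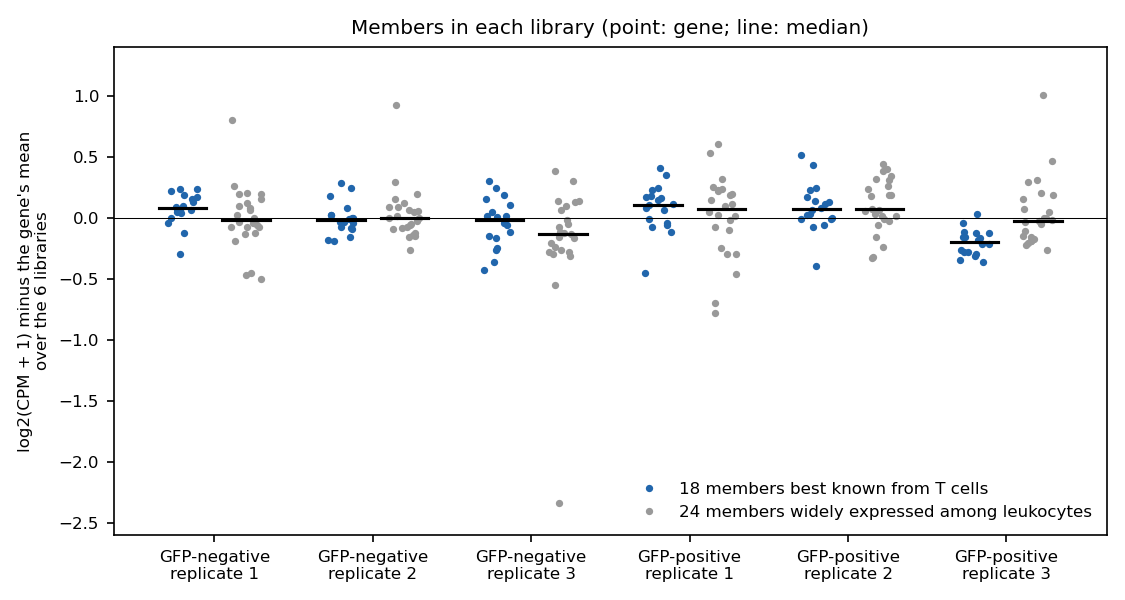
Deviation of each member's log2(CPM + 1) from its mean over the 6 libraries, by library; blue points are the 18 members best known from T cells, grey points the 24 widely expressed among leukocytes, and black lines the medians. The blue median of -0.20 in GFP-positive replicate 3 is the lowest of all, and the grey point at the bottom is Ubash3b in GFP-negative replicate 3.

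Other genes of the same pathway were counted in edgeR's test. Of 45 other forward genes, all tested, 23 were positive (median 0.01) and 0 passed edgeR's adjusted threshold, where 0.108% of all tested genes did. At an unadjusted p under 0.05 there were 2 higher and 2 lower (8.89%), where 10.3% of all tested genes were (4.31% higher, 5.97% lower). Ranges did not overlap for 5 of the 45, and for 16% of all tested genes. The constant regions of the receptor itself differed little in mean, with Trac at 692 ± 138 against 727 ± 51.6 CPM, Trbc1 at 462 ± 52.3 against 481 ± 67.6 CPM and Trbc2 at 952 ± 131 against 943 ± 73.9 CPM (GFP-positive against GFP-negative, mean ± SD, n = 3 each).

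Tespa1, which encodes an adaptor of TCR signalling that binds the inositol trisphosphate receptor, stood at 94.2, 81.9 and 103 CPM in GFP-negative and 192, 186 and 116 CPM in GFP-positive replicates 1 to 3, without overlap. Its log2 fold change was 0.82 ± 0.20 (SE; edgeR adjusted p = 0.142). Ikbkb, a kinase of the NF-kB pathway, had 247 ± 29.6 against 186 ± 33.3 CPM (log2 fold change 0.41 ± 0.16), Fyb, an adaptor of integrin activation, 377 ± 62.00 against 319.9 ± 12.7 CPM, and Itpr3, an inositol trisphosphate receptor, 21.7 ± 3.95 against 15.4 ± 4.73 CPM. On the lower side, the RAS gene Hras was weak, at 11.6, 15.01 and 27.2 CPM in GFP-negative and 2.25, 4.598 and 6.02 CPM in GFP-positive libraries, and differed by -2.05 ± 0.51 on the log2 scale (SE; edgeR adjusted p = 0.158). Ppp3ca, a catalytic subunit of calcineurin, had 61.8, 75.5 and 41.7 CPM and 27.5, 31.96 and 51.6 CPM, overlapping in GFP-negative replicate 3 and GFP-positive replicate 3. Sh2d2a, a T cell adaptor of LCK, had 901 ± 141 against 1113 ± 75.5 CPM.

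Among 20 further brakes 18 were tested, and 13 of them were negative (median log2 fold change -0.21), where the 14 brakes of the set had a median of 0.05. Of all 11074 tested genes 5362 were negative (median 0.02), and of the 1915 with a mean of at least 100 CPM 1049 were (median -0.03). By edgeR 0 of the further brakes were called and 0 had an unadjusted p under 0.05, where 0.108% and 10.3% of all tested genes did. Map4k1, which encodes HPK1, a kinase that destabilises SLP-76, had 186, 152 and 192 CPM in GFP-negative and 164, 124 and 139 CPM in GFP-positive libraries, with overlap (edgeR adjusted p = 0.552). Spry1 and Spry2 were at or below 1.36 and 6.31 CPM in every library and did not pass the filter. In edgeR's fit the 2 lists of brakes thus lay on either side of 0 by small amounts, and the difference between them was not tested. On log2(TPM + 1) the median of the 14 brakes of the set was -0.02, so their side depends on the scale.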

How the data were processed

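Bulk RNA-seq of 6 libraries, 3 per gate, was used. Per the labels' protocols, cDNA was made with oligo-dT and random primers, amplified by PCR and tagmented, without strand marks or molecular identifiers. The authors deposited raw counts per gene and TPM; per the submitters' processing notes the build was mm10, and the tools named were STAR 2.7.10b, fastp 0.23.3, deepTools 3.5.1 and SAMtools 1.17. Which program counted reads, and on which annotation, is not given in the sources used here. All value columns were matched by name to a sample.

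The counts of all genes were tested with edgeR 4.0.16 in R 4.3.3 (quasi-likelihood F-test, robust dispersions, TMM factors, expression filter with minimum count 10, group as the only term), with Benjamini-Hochberg adjustment over 11074 genes and a threshold of 0.05. CPM values are relative to TMM-scaled totals of the tested genes; 3 counts corresponded to 0.43 to 0.69 CPM. Standard errors come from the log2 fold change and F, and intervals from the moderated degrees of freedom, without adjustment over genes. Of 55335 identifiers 54587 matched GENCODE M21 (GRCm38), all 42 members among them. Of the members, 11 share exonic bases with a gene on the opposite strand (Cd3e, Cd247, Lcp2, Rasgrp2, Themis, Plcg1, Orai1, Nfatc3, Ptpn6, Dgka and Dgkz), whose reads cannot be told apart.

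The members and lists were chosen with earlier results of these data known. Values in every library are given for the CD3 chains, Lck, Zap70, Lat, Ptprc and up to 8 members per direction with the smallest unadjusted p, and some others are shown beside them; of further pathway genes, up to 4 per direction with the smallest unadjusted p are named, with the receptor constant genes; some further named genes are not reported here. Alternatives were DESeq2 1.42.0, limma-voom (limma 3.58.1), limma on log2(TPM + 1) (also unfiltered) or log2(TPM + 0.1) at a TPM filter of 1, RLE factors, unscaled library sizes, a filter of 1 CPM in 3 libraries or none, the replicate number as a block, and leaving out each library. The fits were tested on simulated data. No pair of replicates was a duplicate (chi-square per degree of freedom of at least 11.4).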

Additional observations from a re-analysis of the deposited data

How the results depend on the processing

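The median log2 fold change of the 42 members stayed between -0.03 and 0.11 over 16 alternatives, and the number with a positive sign between 16 and 27. The count of members past the adjusted threshold, 0 in edgeR's test, was 1 with DESeq2 and 1 with no filter, Dgka in both, and 0 without each library in turn. Over all genes DESeq2 called 200 of 11074 and the fit with no filter 373 of 20982, where edgeR's test called 12 of 11074. The count at an unadjusted p under 0.05, 6 in edgeR's test, was 3 with limma on log2(TPM + 1) and 3 on log2(TPM + 0.1). These were Dgka, Orai1 and Zap70 in both. On log2(TPM + 1) with no filter it was 2, Orai1 and Zap70. Over all genes 1172 of 14169, 1156 of 14169 and 1260 of 20942 met that threshold in these fits, in the same order. Cblb, Malt1, Prkcq and Cd28 thus missed that threshold in every fit on TPM, and the cause was not tested. Leaving out 1 library gave 3 to 7, the 3 without GFP-negative replicate 3, where Cblb, Dgka and Malt1 were left. In that fit 846 of all 11866 tested genes met the threshold. Without GFP-negative replicate 2 it was 7 members, beside 822 of 11840 genes. With the replicate number as a block, 0 members passed the adjusted threshold and 7 had an unadjusted p under 0.05, with a median of 0.03. In that fit the calls over all genes went from 12 to 81, and 1309 of 11074 genes had an unadjusted p under 0.05. Same-numbered libraries deviated together with r = 0.104, 0.0971 and 0.104 across genes, and each library correlated best with its own number, which is a hint from the data and not from the labels. At this depth Sos1, on 32 to 79 counts per library, and Ubash3b, on 1 to 79, have intervals that reach past 2-fold.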
